A study of Xenopus laevis with 8 samples.

Results

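The comparison described here adds an antisense morpholino against lrig3 to animal caps of Xenopus laevis that had been driven towards neural crest, and it uses 4 of the 8 arrays of the series. The arrays were chosen by their labels: 2 of caps from embryos injected with chordin, wnt3a and lrig3MO, called morpholino caps here, and 2 of caps from embryos injected with chordin and wnt3a only, called chordin-wnt3a caps. Chordin and wnt3a are therefore shared by all 4 arrays, and the morpholino is the labelled difference. The other 4 arrays, 2 of caps injected with chordin alone and 2 of uninjected caps, entered the estimate of spread and are given as levels. Embryos were injected at the 2-cell stage and caps were cut at stage 9. The series text speaks of extracting RNA at that stage and also of culturing caps to stage 15; collection at stage 15 is assumed here. The dose, the sequence and the target site of the morpholino were not used here, and none of the 4 groups is labelled as carrying a control morpholino.

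An animal cap is the roof of the blastula, a sheet of ectoderm that forms epidermis when it is cultured alone. Chordin is a secreted antagonist of BMP ligands that turns such ectoderm towards neural fate, and a Wnt ligand given together with it is a standard way to obtain neural crest, the migratory population at the border of the neural plate that forms pigment cells, peripheral neurons and facial skeleton. Crest specification runs from border genes of the Pax, Zic, Msx and AP-2 families to specifier genes such as snai2, foxd3, sox8, sox9, sox10 and twist1. Lrig3 is a single-pass membrane protein with leucine-rich repeats and immunoglobulin domains, of a family known for acting on growth factor receptors, and in Xenopus it has been studied as a gene required for crest formation. A morpholino blocks translation or splicing of its target and need not remove the mRNA, so the array signal of lrig3 does not measure how well it worked.

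The values are MAS5 signal intensities on a linear scale, and changes are differences of log2(signal + 5.22), written as morpholino caps minus chordin-wnt3a caps. A probe set or gene is called when its limma adjusted p (Benjamini-Hochberg over 22000 probe sets) is below 0.05, and a gene is read from its brightest probe set. "Rose" and "fell" are used only of called genes. Gene names ending in .L and .S are the homeologous copies of the long and short subgenomes, whose probes can cross-hybridise. The labels do not say that replicates came from separate batches of embryos, so the spread behind each p-value is that of these arrays and may be technical. With 2 arrays in each group the smallest exact two-sided permutation p would be 0.333.

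The labels were first set against the genes they name. The wnt3a.S probe set, which cannot tell injected RNA from the embryo's own, had a signal of 27548 and 25479.8 in morpholino caps and 10956 and 18771 in chordin-wnt3a caps, while the chordin and uninjected arrays lay at 2.24 and 0.498 and 28.2 and 14.1. Its log2 difference of 0.89 between the compared groups was not called (limma adjusted p = 0.187). The chrd.1.S probe set stood at 156 and 159 in morpholino caps, against 100.4 and 291 in chordin-wnt3a caps (log2 difference -0.12, limma adjusted p = 0.913). The lrig3.S mRNA itself rose with its morpholino: its signal was 4787 and 3002 in morpholino caps and 741 and 756 in chordin-wnt3a caps. Both morpholino arrays were above both others, 5.04-fold on average (log2 2.33, SE 0.35, limma adjusted p = 0.0246). Chordin caps had 3191 and 2158 and uninjected caps 95.6 and 172.

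One technical measure differed between the groups and touches every result below. The bacterial poly-A control transcripts had a geometric mean signal of 924 and 813 on the morpholino arrays and 474 and 416 on the chordin-wnt3a arrays; on the other arrays it was 1003 in uninjected replicate 1 and 430.3 to 543 in the rest. Under the deposited scaling, which sets each array to the same mean, the median log2 change over all genes was 0.0064. Scaling the arrays to these controls instead moves that median to -0.93, so all changes given here are relative to the bulk of the RNA on the array. Whether the amount of sample RNA or the amount of control added differed was not tested.

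Of the 22000 probe sets tested, 1077 were called: 601 were higher (2.73%) and 476 were lower (2.16%) in morpholino caps. All 1077 had both morpholino arrays on the same side of both chordin-wnt3a arrays, a pattern that 26.9% of all probe sets showed upwards and 25.2% downwards. The median log2 change of the called probe sets was 1.54 among the higher and -1.12 among the lower, and 173 rose by more than 2 on the log2 scale while 62 fell by more than 2. At the level of named genes, 231 of 8823 were higher (2.62%) and 235 were lower (2.66%). The counts moved when arrays were left out, and the cause was not tested. Without morpholino replicate 1 no probe set passed limma (4035 had an unadjusted p below 0.05), and without morpholino replicate 2 there were 222 higher and 240 lower. Without chordin-wnt3a replicate 1 or 2 there were 45 and 28 higher and 5 and 3 lower. Leaving out an array of the chordin or uninjected groups left 165 to 215 higher and 89 to 128 lower. With spike-in scaling 149 were higher (0.677%) and 5317 lower (24.2%), and by gene 61 (0.691%) and 2502 (28.4%). Of the 90 called genes that the naming rule selects, none kept its call without morpholino replicate 1, 9 kept it without chordin-wnt3a replicate 1, 9 without chordin-wnt3a replicate 2, and none changed direction when an array was left out. Of these 90, 26 had a further tested probe set; for 25 every further one pointed the same way, and for 16 at least 1 was not called.

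Many neural crest genes fell. Of 33 crest symbols on the array 28 were tested, 11 fell (against 2.66% of all genes), 1 rose (pcdh8.L), and both morpholino arrays were below both chordin-wnt3a arrays for 25 of the 28, against 27.8% of all genes. The median log2 change over the 28 was -1.63 (-2.52 with spike-in scaling), and it was -1.57 between the arrays numbered 1 and -1.60 between those numbered 2. In whole caps, fewer crest cells and less RNA per crest cell cannot be told apart. The list count was 0 without morpholino replicate 1 and without either chordin-wnt3a array, and 6 without any single one of the other 5 arrays.

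Snai2.L encodes a zinc finger repressor that marks crest precursors and is needed for their emigration. Its signal was 1046 and 1015 in morpholino caps and 4602 and 4592 in chordin-wnt3a caps, with 8.33 and 9.07 in chordin caps and 64.6 and 71 in uninjected caps. Replicates lay almost on top of each other, and the level in morpholino caps was 4.44-fold lower (log2 -2.15, SE 0.19, limma adjusted p = 0.00983) yet far above that without wnt3a. Sox10.L, a SoxE transcription factor of crest progenitors and later glia, had 275 and 76.4 against 1197 and 1965. It fell 10.2-fold, the largest drop of the list, with morpholino replicate 2 the lower of the pair (log2 -3.35, SE 0.67, limma adjusted p = 0.043). Its relatives fell less: sox8.L had 2676 and 2009 against 8798 and 8854 (3.8-fold lower). Sox9.L had 1358 and 967 against 2821 and 3062 (2.56-fold lower). All 4 values of each gene were separated by group, as they were for every called gene.

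Twist1.L, a basic helix-loop-helix factor of migrating and skeletal crest, had 59.3 and 60.6 in morpholino caps and 598 and 600.5 in chordin-wnt3a caps. That is a 9.27-fold drop with almost no spread in either group (log2 -3.21, SE 0.47, limma adjusted p = 0.0238). Both copies of ets1, an ETS factor of cardiac and cranial crest, fell: ets1.S had 155 and 205 against 1480.2 and 1126 (7.06-fold), and ets1.L had 211 and 338 against 1556 and 1394 (5.43-fold). Foxd3.L, a forkhead factor that keeps crest progenitors multipotent, had 1003 and 2553 against 6763 and 7027. It was 4.3-fold lower, with the morpholino replicates further apart than the others (limma adjusted p = 0.0441). Its copy foxd3.S had a nearly equal log2 difference of -2.11, with 1117 and 3934 against 8082 and 10152, but did not pass (limma adjusted p = 0.0722). Genes for a kinase inhibitor, a receptor and an adhesion molecule fell too. Inka1.L, an inhibitor of a p21-activated kinase, had 996 and 1428 against 6933 and 5806. Ednra.S, the endothelin receptor of branchial crest, had 63.8 and 85 against 273 and 388. The protocadherin gene pcdh8l.S had 137 and 79.7 against 902 and 868.

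Several other crest genes were not called, among them some with changes of similar size. Sox9.S, the brighter copy of sox9, had 3667 and 5503 in morpholino caps against 11775 and 12593 in chordin-wnt3a caps (log2 difference -1.44, against -1.35 for sox9.L, limma adjusted p = 0.0748). Snai1.S, a relative of snai2 that is also used in mesoderm, had 5414 and 7519 against 7896 and 10944 (limma adjusted p = 0.2). The helix-loop-helix inhibitor id3 was nearly level: id3.S had 18301 and 16568 against 20431 and 19209, and its level was as high in uninjected caps, 19604 and 18882. The exception that rose, pcdh8.L, encodes paraxial protocadherin and had 578 and 644 against 22.3 and 67.5, with 751 and 824 in chordin caps (log2 3.78, SE 0.43, limma adjusted p = 0.0168).

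**Figure D1:**
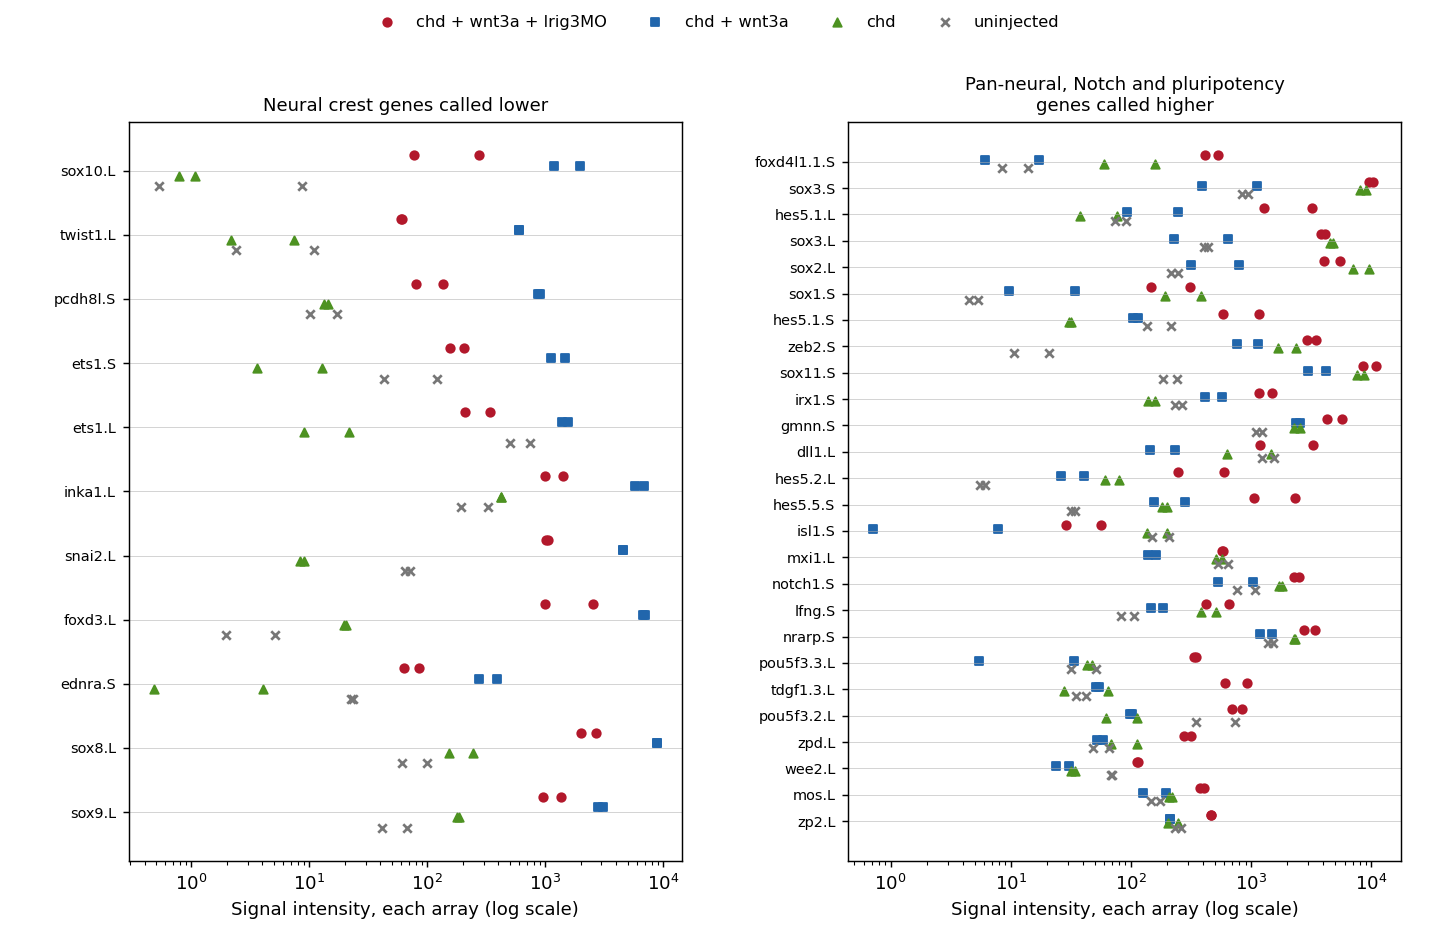
Signal intensity (log axis) of each of the 8 arrays for the 11 neural crest genes that fell (left) and the pan-neural, Notch and pluripotency genes that rose (right), 1 point per array and 1 row per gene, ordered by size of change within each list. On the left the red morpholino points sit below the blue chordin-wnt3a points and above the green chordin points in every row, and on the right they sit above the blue points in every row.

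The neural plate border genes that stand above the crest specifiers had no called member among 20, where the shares of all genes are 2.62% higher and 2.66% lower, so the count itself tells little. Both morpholino arrays were below both chordin-wnt3a arrays for 10 of the 20 (against 27.8% of all genes) and above for 5 (against 25.8%), with a median log2 difference of -0.22 (-1.17 with spike-in scaling). Msx1.L, a homeobox gene of the border, was level at 7473 and 7227 in morpholino caps and 8079 and 7768 in chordin-wnt3a caps. Zic1.S, a zinc finger gene required for both crest and plate, had 12569 and 15904 against 6114 and 10227, higher in both morpholino arrays but not called (log2 difference 0.84, limma adjusted p = 0.201). Pax3.S had 1766 and 1858 against 773 and 1258 (limma adjusted p = 0.219) and was at background without wnt3a. The AP-2 gene tfap2a.L had 5091 and 5952 against 7618 and 7557, and the largest drop of the list was that of its relative tfap2b.L, 901 and 543 against 2385 and 2049.8 (log2 difference -1.65, limma adjusted p = 0.0775). The crest and border lists were not tested against each other.

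Several pan-neural genes rose. Of 34 tested, 11 were called higher and 0 lower, against 2.62% of all genes, and 20 had both morpholino arrays above both chordin-wnt3a arrays, against 25.8%. The median log2 change was 0.88; with spike-in scaling it turned to -0.075 while 7 were still called. The count was 0 without morpholino replicate 1, 4 and 3 without chordin-wnt3a replicates 1 and 2, 5 without either chordin array and 6 without uninjected replicate 1. The SoxB1 factors, which hold neural progenitors in the undifferentiated state, were among those that rose. The largest called change of the list was that of foxd4l1.1.S (log2 4.90), given below. Sox3.S had 10335 and 9546 in morpholino caps and 391 and 1128 in chordin-wnt3a caps, with 8987 and 8044 in chordin caps. It rose 14.8-fold (log2 3.89, SE 0.43, limma adjusted p = 0.0168), to a signal like that of caps that received chordin alone; that last comparison was not tested. Sox2.L had 5529 and 4065 against 314 and 787, and both of its other probe sets were called higher too. Its rise was 9.43-fold (limma adjusted p = 0.0216). In chordin-wnt3a caps replicate 1 had the lower level of sox2 and of both sox3 copies, so the change was larger between the arrays numbered 1: for sox2.L 4.11 against 2.36 between those numbered 2.

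Sox1.S, the third SoxB1 gene, had 311 and 147 against 9.65 and 34.1, of which only chordin-wnt3a replicate 2 was above background. Foxd4l1.1.S, a forkhead gene that keeps early neural ectoderm immature in Xenopus, had 532 and 415 in morpholino caps. In chordin-wnt3a caps it was at background on both arrays (17.3 and 6.06), so the rise was at least 16.8-fold (limma adjusted p = 0.0168). Chordin caps had 158 and 60.1, so the morpholino arrays were the highest of all 8. Smaller rises were found for zeb2.S, a zinc finger homeobox repressor, with 2926 and 3496 against 769.8 and 1135. Sox11.S, a SoxC factor of neural and placodal ectoderm, had 10997 and 8526 against 2993 and 4178. The patterning gene irx1.S and the replication licensing inhibitor gmnn.S rose 2.68-fold and 2.01-fold. Not all members moved: the neuronal tubulin tubb2b.S had 4507 and 3864 against 4471 and 4813. The cell adhesion gene ncam1.S had 661 and 221 against 278 and 367, and neither passed the test.

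Several Notch pathway genes rose as well, with 8 of 19 in the list of primary neuron and Notch genes called higher, against 2.62% of all genes, and 0 lower. The median log2 change was 1.65 (0.71 with spike-in scaling), and 15 had both morpholino arrays above both chordin-wnt3a arrays, against 25.8%. The count was 0 without morpholino replicate 1 or either chordin-wnt3a array, 4 and 5 without the chordin arrays and 2 without either uninjected array. The ligand gene dll1.L had 3283 and 1189.7 against 235 and 143, a 10.5-fold rise with morpholino replicate 1 the higher (log2 3.39, SE 0.57, limma adjusted p = 0.0312). The receptor gene notch1.S had 2494 and 2268 against 531 and 1031 (3.2-fold). Lfng.S, the glycosyltransferase that modifies the receptor, had 656 and 422 against 184 and 147 (3.14-fold). Chordin caps had 1452.5 and 634 for dll1.L, 1791 and 1699 for notch1.S and 510 and 381 for lfng.S, all above the chordin-wnt3a values. Uninjected caps had 1550 and 1236, 763 and 1080, and 82.9 and 105 for the same genes.

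Known Notch response genes are among those that rose. Hes5.1.L, a helix-loop-helix repressor, had 3230.4 and 1287 in morpholino caps and 248 and 93.3 in chordin-wnt3a caps. Chordin caps had only 37.4 and 76.5. The rise of hes5.1.L was 12.9-fold (log2 3.69, SE 0.61, limma adjusted p = 0.0293). Its copy hes5.1.S rose too, with 1160 and 580 against 115 and 103. Both copies are counted in the pan-neural list, not in the Notch list. Hes5.2.L had 591 and 249 against 40.7 and 26, the last of these below background, and hes5.5.S had 2298 and 1058 against 280.3 and 157. For hes5.1.L, hes5.2.L and hes5.5.S morpholino replicate 1 was more than 2-fold above replicate 2, while both stayed above every chordin-wnt3a value. Nrarp.S, a feedback inhibitor of Notch, had 3404 and 2738 against 1192 and 1491. Mxi1.L, a Max partner, had 586 and 574 against 139 and 162 (log2 1.92, limma adjusted p = 0.0163). For mxi1.L the level was similar in chordin caps (509 and 569) and uninjected caps (646 and 529.5). Chordin caps had 2322 and 2257 for nrarp.S, but only 60.5 and 79.3 for hes5.2.L and 200 and 181 for hes5.5.S. Isl1.S passed the test with 28.8 and 56.7 against 7.89 and 0.717, of which only morpholino replicate 2 was above background, and its second probe set was not called. Elavl3.L, an RNA-binding protein of new neurons, had 822 and 410 against 115 and 143. It was higher in both morpholino arrays but not called (limma adjusted p = 0.136). Neurog2.S, a proneural factor, was not called either and had 605 and 62.7 against 80.5 and 51.4, high in 1 morpholino array only.

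In the list of genes of the egg and of early pluripotent cells 7 of 20 were called higher, against 2.62% of all genes, and 0 lower. Like the other lists it was drawn up with earlier results known, so these shares are not independent support for a group. Both morpholino arrays were above both chordin-wnt3a arrays for 14 of the 20, against 25.8%. The median log2 change was 1.22 (0.33 with spike-in scaling), with 1.21 and 1.18 between the arrays of each number. The count was 0 without morpholino replicate 1 or chordin-wnt3a replicate 2, 1 without morpholino replicate 2 or chordin-wnt3a replicate 1, and 4 without any one of the other 4 arrays. Pou5f3 genes are the amphibian relatives of mammalian Oct4. Pou5f3.3.L had 347 and 333 in morpholino caps against 33.5 and 5.45 in chordin-wnt3a caps, where 1 array was below background. Pou5f3.2.L had 696 and 835 against 101 and 97.9 (7.33-fold, limma adjusted p = 0.0238), and uninjected caps reached 733 and 347. The brightest of the family, pou5f3.1.L, had 4772 and 4959.9 against 1945 and 1050.3 and did not pass (limma adjusted p = 0.0538).

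Tdgf1.3.L, an EGF-CFC co-receptor for Nodal ligands, had 918 and 604 in morpholino caps and 51.1 and 54 in chordin-wnt3a caps. It was 13-fold higher (log2 3.70, SE 0.41, limma adjusted p = 0.0168), and no chordin or uninjected array exceeded 64. The egg coat genes zpd.L and zp2.L also rose: zpd.L had 279 and 318 against 58.8 and 52.4, and zp2.L had 465 and 467 against 211 and 211. So did 2 kinase genes of the oocyte cell cycle, with 378 and 404 against 126 and 196 for mos.L and 115 and 112 against 30.8 and 23.8 for wee2.L. For the last, 1 chordin-wnt3a array was below background. The germ line helicase gene ddx4.L was level between the groups, 1071 and 1734 against 1009.8 and 1660.

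Genes of the front of the brain that are high in chordin caps were mostly not called. Of the 27 anterior genes 2 rose, against 2.62% of all genes, and both morpholino arrays were above both chordin-wnt3a arrays for 7 (against 25.8%). Rax.L, a homeobox gene of the eye field, had 8.7 and 9.71 in morpholino caps and 6.61 and 11.6 in chordin-wnt3a caps, all at background, against 5327 and 3224 in chordin caps. Six6.L, vsx1.L, fezf2.L and hesx1.S were likewise at background on all 4 arrays compared. Such genes passed the filter only through the other 4 arrays. The absence of a call for them, and their part in the list's counts and median, therefore tell little. Of the genes that rose, pax6.L, a paired homeobox gene of eye, forebrain and hindbrain, had 2389 and 518 against 48.3 and 52.6, with 8323 and 6139.9 in chordin caps; morpholino replicate 1 was the higher and the rise was 20.1-fold (log2 4.33, SE 0.64, limma adjusted p = 0.0256). Its second probe set did not pass. Lhx5.S, a LIM homeobox gene of the diencephalon, had 323 and 872 against 41.7 and 84.8. The cement gland gene ag1.L had 1904 and 2054 against 3215 and 2053, far under the 23864 and 22553 of chordin caps. The anterior list had a median log2 change of 0.53, which was -0.24 with spike-in scaling.

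Among ligands, both FGF genes that were called rose. Fgf3.L had 1121 and 1755 in morpholino caps and 66.3 and 78.1 in chordin-wnt3a caps, and 13 and 13.6 in chordin caps, so the morpholino caps were the only ones with a strong signal. The rise was 18.2-fold (log2 4.19, SE 0.32, limma adjusted p = 0.00699). Fgf8.L, a ligand of the isthmus and the tail bud, had 2608 and 678 against 193 and 122, with 2497 and 2113 in chordin caps (limma adjusted p = 0.043). Its 2 other probe sets were not called, and in 1 of them the groups overlapped. Pax2.L, a paired gene of the isthmus and otic placode, had 229 and 243 against 22.8 and 69.7. Besides fgf3.L and fgf8.L, no gene was called of the 28 in the FGF, ErbB and MAP kinase list, and the share of all genes called higher was 2.62%. The list's median log2 change was 0.20 (-0.75 with spike-in scaling).

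Of 32 Wnt target and feedback genes 1 rose and 1 fell, shares near those of all genes (2.62% and 2.66%), with a median log2 change of 0.23 (-0.72 with spike-in scaling). Axin2.L, a feedback inhibitor that reports Wnt activity, had 8512 and 6135 in morpholino caps and 6179.7 and 5759 in chordin-wnt3a caps, against 135 and 139.9 in chordin caps (limma adjusted p = 0.512). Sp5.L, a zinc finger target, fell: it had 2393 and 3053 against 5269 and 4863 (1.87-fold, limma adjusted p = 0.0481). Cyclin D1, ccnd1.L, rose and had 10284 and 9486 against 3444 and 4116, while its copy ccnd1.S had 6621 and 6295 against 4810.5 and 5945 and was not called. Both were as high or higher in chordin caps, which lack wnt3a: 9573 and 9088 for ccnd1.L and 12749 and 11709 for ccnd1.S. In the list of Wnt receptors and transducers 3 of 38 rose and 1 fell, against 2.62% and 2.66% of all genes. The receptor gene fzd7.L, a member of both lists, is not in these counts because its brightest probe set was not called. Each of its other tested probe sets was called higher. The brightest of those had 3276 and 3312 against 1132 and 1538 (log2 1.32, limma adjusted p = 0.0256). The ligand wnt4.L had 431 and 201 against 37 and 60.2 (5.7-fold, limma adjusted p = 0.0439). The co-receptor ryk rose in both copies, ryk.L 2.2-fold and ryk.S 2.11-fold. The kinase gene csnk1a1.S fell, with 1332 and 1893 against 2942 and 3464. Its brighter copy csnk1a1.L was nearly level, with 12476.5 and 12833.5 against 12330.3 and 11508.6, and was not called.

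The BMP list of 45 had 2 called genes, both copies of the ligand bmp2, and both fell, against 2.66% of all genes called lower. Both morpholino arrays were above both chordin-wnt3a arrays for 26.7% of the list and below for 24.4%. The shares of all genes were 25.8% and 27.8%. The list's median log2 change was 0.043 (-0.90 with spike-in scaling), so the list as a whole was close to all genes. Bmp2.S had 274 and 338 in morpholino caps and 1055 and 1111 in chordin-wnt3a caps (3.51-fold, log2 -1.81, limma adjusted p = 0.0216). Bmp2.L had 56.1 and 52.4 against 346 and 292 (5.44-fold), but its second probe set, 1.91-fold lower, was not called (limma adjusted p = 0.223). Among the 9 genes of Lrig and other leucine-rich repeat receptors, flrt3.L, a membrane protein that interacts with FGF receptors, fell to 208 and 353, against 1531 and 1709.7. Both of its probe sets were called (log2 -2.55 for the brighter, SE 0.39, limma adjusted p = 0.0255), but its copy flrt3.S had 70.1 and 117 against 38.2 and 31.4, a log2 difference of 1.27 in the other direction that did not pass (limma adjusted p = 0.0815). Cav1.L, the caveolin gene, fell and had 769 and 826 against 3417 and 2856. It was the single one called of the 16 tested organizer and notochord genes, against 2.66% of all genes called lower.

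In the cell cycle list 12 of 75 were called higher (against 2.62% of all genes) and 1 lower, and 36 had both morpholino arrays above both others, against 25.8% of all genes. Their median log2 change was 0.16, close to that of all genes, and with spike-in scaling it was -0.79, no member was called higher, and ccnb2.L, ccnb3.L, kif20a.S and pcna.L turned to values just below 0. The count was 0 without morpholino replicate 1, 1 and 3 without the chordin-wnt3a arrays, 5 without morpholino replicate 2 or either chordin array, and 6 without either uninjected array. The 12 include wee2.L and ccnd1.L, which other lists hold too. Ccna2.L, cyclin A2 of S phase and mitotic entry, had 9216 and 8749 in morpholino caps and 2782 and 2709.8 in chordin-wnt3a caps, and chordin caps had 4666 and 4333. The morpholino arrays were the highest of the 8, and their level was 3.27-fold above that of chordin-wnt3a caps (log2 1.71, SE 0.11, limma adjusted p = 0.00355). Cdc6.L, which loads the replicative helicase, had 6329.9 and 6194 against 1633 and 2178. Cdc25b.L, a phosphatase that activates cyclin-dependent kinases, had 299.8 and 272 against 51.9 and 71.8. Its 2 dimmer probe sets were not called. The one gene called lower, kif23.S, had a second probe set with a log2 difference of 0.58, so its direction is uncertain.

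The compared arrays also differed in their content of epidermal, posterior and mesodermal genes, with wide gaps between replicates. Multiciliated cell genes were higher in morpholino replicate 2: the summed signal of the 34 tested was 30704 and 52358 in morpholino caps and 29602 and 26350.2 in chordin-wnt3a caps, and the median log2 difference was 0.053 between the arrays numbered 1 and 2.55 between those numbered 2. The fitted median was 1.42, and 16 of the 34 had both morpholino arrays above both chordin-wnt3a arrays, against 25.8% of all genes. Their master regulator mcidas.S was at background on the chordin-wnt3a arrays and on morpholino replicate 1. Only plk4.L was called, with 907 and 979 against 500.2 and 498 and a change that turned to -0.039 with spike-in scaling. Ionocyte genes summed over 20 members to 5565 and 17936 against 8077 and 5264. The ionocyte master regulator foxi1.L, chosen after its values were seen, had 3.98 and 1507 against 367 and 11.1: it was high in morpholino replicate 2 and moderate in chordin-wnt3a replicate 1, and at background in the other two. Secretory genes summed over 10 members to 15547 and 25879.9 against 23753 and 5014. The lectin gene itln1.L had 9992 and 15923 against 16683 and 601. No gene counted in the ionocyte or secretory lists was called, where the shares of all genes are 2.62% higher and 2.66% lower. These lists name sst and capn8, but the numbered symbols sst.1.L, sst.1.S and capn8.3.L were not matched to them. Those genes fell and are given below, so the absence of calls holds only for the matched symbols.

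Morpholino replicate 1 instead stood out for many posterior and mesodermal genes, though not for most of the brightest. The posterior neural list of 23 summed to 36915 and 11680.4 in morpholino caps and 13499.8 and 11886 in chordin-wnt3a caps. Replicate 1 was above replicate 2 in both groups for 15 of the 23, against 26.4% of all genes. The bright posterior members lacked such a gap. In morpholino replicates 1 and 2, meis3.S had 1627 and 2399 and meis3.L had 1837 and 2559. Hoxb2.S had 1176 and 1224 and nr6a1.S had 1494 and 1465. Of the bright mesoderm members, wnt8a.L (4612 and 4777) and snai1.S (5414 and 7519) lacked it too, while wnt11b.L (2201 and 938) showed it, as did tbxt.S, given below. The caudal gene cdx1.S, chosen after its values were seen like the next 2, had 5363 and 17.1 against 966 and 11.9. The Hox gene hoxa7.L had 3159 and 26.4 against 279 and 41.3, and the muscle actin gene actc1.L had 1709 and 32.4 against 59.2 and 24.3. Tbxt.S, the T-box gene brachyury of mesoderm and tail bud, had 2152 and 144 against 312 and 131. In each case morpholino replicate 1 was the highest of the 4 arrays. None of these 4 was called, and in the mesoderm list only isl1.S was, of 23 genes, against 2.62% of all genes called higher. As given above, of the 4 arrays compared isl1.S exceeded background only on morpholino replicate 2, and its rise was at least 1.62-fold. Its level was higher in chordin caps (135 and 199) and in uninjected caps (148 and 207).

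The crest and pluripotency medians differed little between the numbered pairs of arrays, as given above. The pan-neural and Notch lists leaned towards replicate 1: their median log2 differences were 1.2 and 0.74 and 1.80 and 1.2 between the arrays numbered 1 and 2. Morpholino replicate 1 was above morpholino replicate 2 for 25 of 34 pan-neural genes (median log2 gap 0.39) and for 16 of 19 Notch genes (0.63). The part of tissue content in any single gene's change was not tested.

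**Figure D2:**
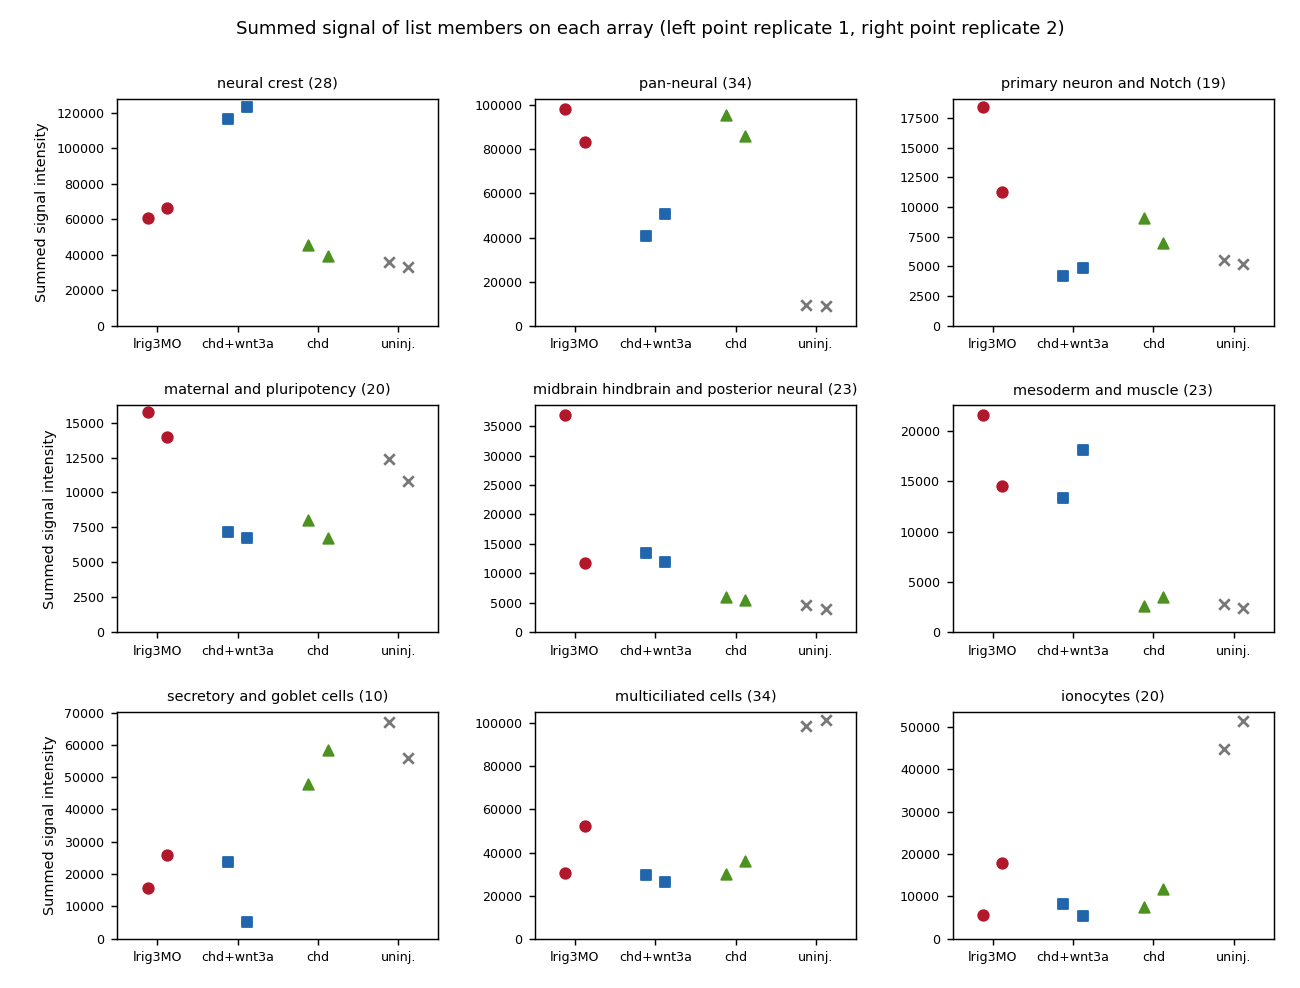
Summed signal intensity of the tested members of 9 gene lists on each of the 8 arrays (linear axis from 0), with replicate 1 as the left and replicate 2 as the right point of each group. Both morpholino arrays lie between the chordin-wnt3a and chordin arrays for crest, while for posterior neural genes replicate 1 and for multiciliated cells and ionocytes replicate 2 is the higher morpholino array.

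**Figure D3:**
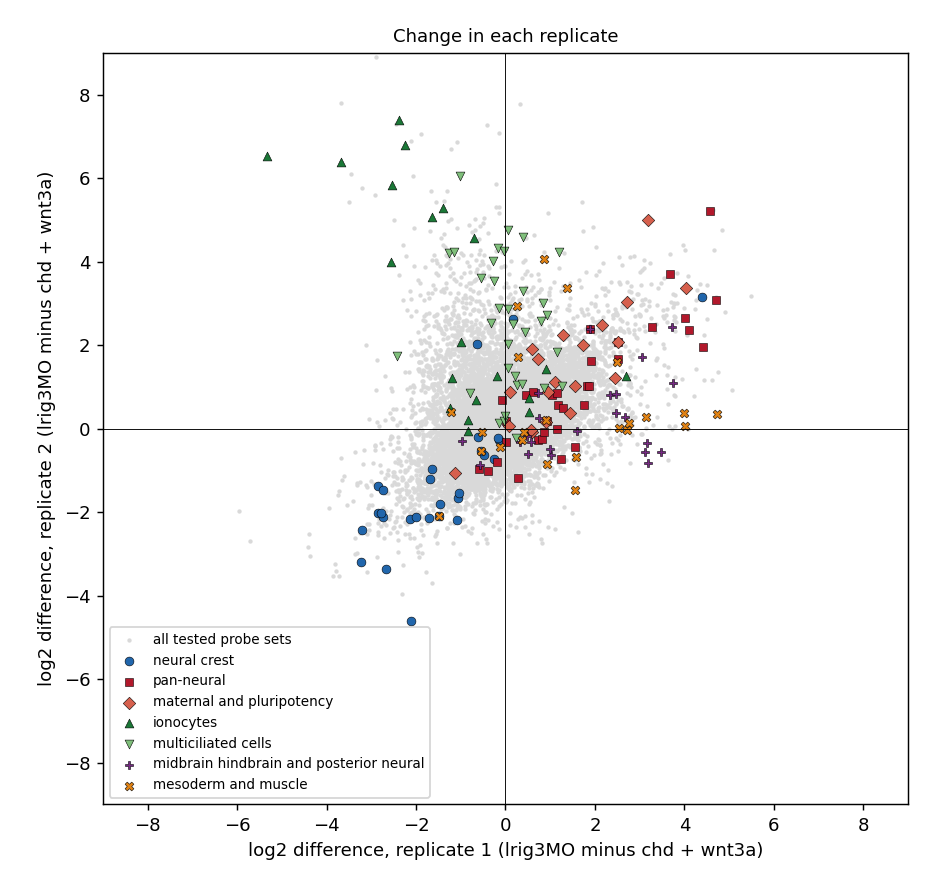
Log2 difference of morpholino minus chordin-wnt3a caps between the arrays numbered 1 (horizontal) and between those numbered 2 (vertical), for all tested probe sets (grey) and the members of 7 lists. Crest genes lie mostly at the lower left and pan-neural and pluripotency genes at the upper right, whereas ionocyte and multiciliated genes spread upwards and posterior and mesodermal genes spread to the right.

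**Figure D4:**
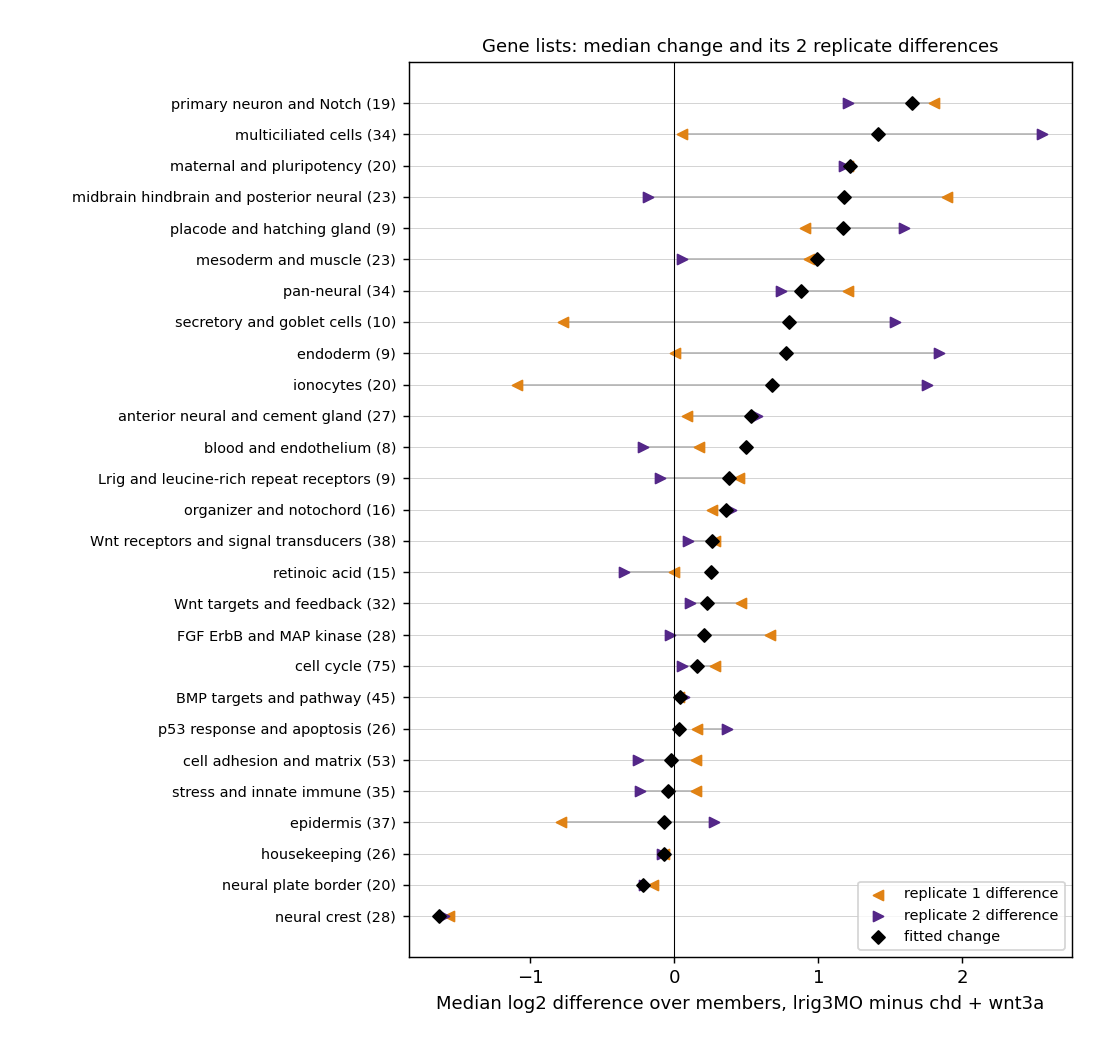
Median log2 difference (morpholino minus chordin-wnt3a caps) over the members of each of 27 gene lists, with the number of tested genes in brackets; diamonds are medians of the fitted change and triangles those of the 2 numbered differences. Neural crest is the lowest list and its 3 symbols coincide, while the multiciliated, ionocyte, secretory and posterior lists have symbols far apart. With spike-in scaling, which is not plotted, only the placode, Notch, posterior, multiciliated, mesoderm, endoderm and pluripotency medians stay above 0. The pan-neural and cell cycle medians are among those that fall below 0.

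Outside the genes counted in the lists, those with the strongest drops belong to several kinds of protein. Both copies of sst.1, the peptide hormone somatostatin, fell: sst.1.L had 109 and 266 in morpholino caps and 1592 and 2556 in chordin-wnt3a caps. It was 11.5-fold lower (log2 -3.52, SE 0.55, limma adjusted p = 0.027), and chordin caps had 1560 and 3859. Several genes that encode extracellular proteins fell too. The astacin-like protease astl2e.2.L had 110.2 and 605 against 2417 and 3497, and was near background without wnt3a. The metalloproteinase mmp28.L had 147 and 213 against 989 and 1325. The matrix gene vwa2.S had 29.4 and 57.9 against 179 and 479.8, with 1 morpholino array below background. Hhip.L, the hedgehog-interacting protein, was at background in morpholino caps (21.1 and 16) and had 84.5 and 224 in chordin-wnt3a caps, a drop of at least 4.27-fold. Inside the cell, rgs14.L, a regulator of G protein signalling, was at background in morpholino caps and at least 5.18-fold lower. The actin-binding gene aif1l.L had 26.1 and 37.1 against 317 and 335, and the calpain protease gene capn8.3.L had 865 and 1241 against 5508 and 6108.

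Several of the strongest rises were genes that were faint on all the other arrays. Picking the largest rises favours such genes, and the filter asks for signal on only 2 arrays. Larp6-like.1.S, of a family of RNA-binding proteins, had 595 and 823 in morpholino caps and 58.7 and 47.7 in chordin-wnt3a caps, with 45.5 and 45.5 in chordin and 52.1 and 66.5 in uninjected caps (log2 3.60, SE 0.28, limma adjusted p = 0.00699). Acat1.L, a mitochondrial thiolase, had 564 and 572 against 43.7 and 41.8. Itgb1bp2.L, an integrin-binding protein, had 273 and 430.3 against 35.2 and 19.8, and lct.1.L, a lactase-like gene, had 568 and 464 against 37.5 and 45.1. The RNA-binding gene rbpms2.L had 821 and 940.3 against 27.2 and 43.7, but chordin caps were split, with 465 and 43.4. Of the 231 genes that rose, 169 were higher on both morpholino arrays than on all 6 other arrays. Of the 169, 60 were higher by more than 2-fold. Lying above all 6 by any amount was found in 11.3% of all genes, but every gene that rose already lay above both chordin-wnt3a arrays. Of all 2272 genes lying above those arrays, 999 were above all 6. Of the 235 that fell, 121 were below all 6 other arrays, against 8.67% of all genes. Each of the 235 already lay below both chordin-wnt3a arrays. Of all 2456 genes lying below those arrays, 765 were below all 6.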

How the data were processed

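Biotin-labelled RNA amplified from each sample was hybridised to 1 Affymetrix array, per the labels' protocols. The authors deposited linear signal intensity values for 32635 probe sets, made with MAS5 (of unstated version) per the submitters' processing notes. Each array's 2% trimmed mean lay at 500.1 after rounding, which shows scaling to 1 target, and the values were not normalized again. Sample titles gave the groups and replicate numbers.

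The 96 control probe sets were left out. Values were analysed as log2(signal + 5.22), where 5.22 is the 10th percentile of the table. Probe sets above the 40th percentile of 2 or more arrays were kept (22000 of 32539). Limma 3.58.1 in R 4.3.3 (lmFit, eBayes with trend and robust) fitted group means to all 8 arrays with 4 residual degrees of freedom, and the median SE was 0.29. The number of arrays limits the precision. The fit was also run on simulated data with independent normal noise, whose spread was estimated from these same arrays. Such data cannot show effects of the spike-in difference, of tissue content or of single arrays. The files hold no detection calls; the background of an array, set after values were seen, was the highest of 23 negative control probe sets. It was 30.8 and 26.1 on the morpholino arrays and 19.5 and 27.1 on the chordin-wnt3a arrays. "At least" folds are given where neither array of the dim group exceeded background, and use for that group the higher of background and own signal.

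Symbols came from the platform annotation, updated by Entrez number through RefSeq (Xenopus_laevis_v10.1): 15495 probe sets had 1 symbol, 279 several and 16765 none. No coordinates are given, since the build of the array design is not known here. Of the 1077 called probe sets 463 had no symbol. Probe sets of 3 symbols were called in opposite directions and these symbols are not reported. Members, the 27 gene lists and tests were chosen with earlier results of these data known. Named genes are the 15 largest called changes each way (non-overlapping, signal of 200 or more), called list members (up to 6 a list with values) and up to 4 bright members a list. Other uncalled genes (such as foxd3.S, sox9.S, pax3.S, tfap2b.L, ncam1.S, elavl3.L, neurog2.S, rax.L, six6.L, vsx1.L, fezf2.L, hesx1.S, mcidas.S and flrt3.S) were chosen after their values were seen. Alternatives covered normalization, pseudocount, filter, arrays in the fit, moderation, the replicate number as a block, each array left out, and averaging the probe sets of a gene.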

Additional observations from a re-analysis of the deposited data

How the results depend on the processing

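Calls in the comparison depend on the spread estimated from few arrays. Counts are given as higher, then lower. They were 25 and 7 with only the 4 arrays compared, 149 and 5317 with spike-in scaling (the poly-A controls dap, lys, phe and thr; trp was at background and was left out), and 283 lower without trend and robust moderation. Quantile normalization (601 and 584), both other pseudocounts and both other filters stayed within 1.5 times. Leaving out single arrays gave 0 to 222 higher and 0 to 240 lower. For crest genes that fell the range was 0 to 6, with 2 in the 4-array fit, 6 with a pseudocount of 1 and 25 with spike-in scaling. For pan-neural genes that rose it was 0 to 10, with 1 in the 4-array fit and 7 with spike-in scaling. For Notch genes it was 0 to 7, with 0 in the 4-array fit and 4 with spike-in scaling. For maternal and pluripotency genes it was 0 to 4, with 2 and 4. For cell cycle genes it was 0 to 6, with 1 and 0, and 6 without trend and robust moderation. The cause of these moves was not tested.

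With the replicate number as a block 1675 probe sets were higher of 22000 and 1614 lower, and all 90 called genes of the naming rule kept their call. Another 11 uncalled named genes passed with it, among them pou5f3.1.L (limma adjusted p = 0.0132) and snai1.S (limma adjusted p = 0.0335), and 1 border gene was lower. The labels do not say what a number marks. The replicate 1 minus 2 differences correlated at 0.172 between the compared groups and at 0.172 to 0.505 over the 6 pairs of groups, but there are only 2 numbers, so the block was not used. The gapdh 3' to 5' signal ratio also split by number, at 1.26 to 1.41 on the arrays numbered 1 and 1.61 to 1.76 on those numbered 2. The block moved none of the 5 list counts given above by over 1.5 times.

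With spike-in scaling, which lowers all genes together, directions turned for pcna.L (-0.062), ccnb2.L (-0.16), ccnb3.L (-0.16), kif20a.S (-0.11) and plk4.L (-0.039). Uncalled bright genes turned and were called lower: krt70.S (-0.90), actb.L (-0.91), hspa1l.S (-0.86), hspa8.L (-0.93), rps18.L (-0.89) and actg1.S (-0.91). No other named called gene turned under any alternative run.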

Other observations

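Genes of the p53 response, often examined in morpholino experiments, were called in both directions: of 26 tested, 2 rose and 2 fell (against 2.62% and 2.66% of all genes), and the median log2 change was 0.03 (-0.92 with spike-in scaling). Bax.S, which promotes apoptosis, fell and had 60.1 and 85.9 in morpholino caps against 327 and 275 in chordin-wnt3a caps (log2 -1.98, limma adjusted p = 0.0214); its second probe set, 1.88-fold lower, was not called (limma adjusted p = 0.103). Ccng1.L, cyclin G1, fell 1.73-fold and had 5915 and 6105 against 10385 and 10442. Its copy ccng1.S was not called, with 3110 and 1884 against 2901 and 2729. Further probe sets of ccng1.S had log2 differences of 1.09 and 0.45 and were not called either. Tp53inp1.S, a stress-induced nuclear protein, rose and had 195 and 156 against 38.1 and 46.8. The ribonucleotide reductase gene rrm2b.S had 15319.9 and 13262 against 6302 and 7210.2, and chordin caps had 13123 and 12253. In the stress and innate immune list 1 of 35 was called, against 2.62% of all genes called higher and 2.66% lower. It was hmox1.L, heme oxygenase, which fell and had 2929 and 2306 against 5259.6 and 4872.

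Of 15 retinoic acid genes 2 rose, against 2.62% of all genes, while 6 had both morpholino arrays below both chordin-wnt3a arrays, against 27.8%. The receptor gene rarg.S had 9156 and 6379.9 in morpholino caps and 2808 and 3375 in chordin-wnt3a caps (2.48-fold, limma adjusted p = 0.0316), and its 2 other probe sets were called higher too. Dhrs3.L, which reduces retinal, had 269 and 297 against 93.9 and 101. Among 37 epidermal genes pkp3.L, a desmosomal plakophilin, was the single one called and had 1313 and 1323 against 644 and 414. Of 26 housekeeping genes pgk1 rose 2.31-fold and ppia.L fell 2.43-fold, and the list's median log2 change was -0.072. In the placode list of 9, sox11.S and pax2.L rose, against 2.62% of all genes, and 6 had both morpholino arrays above both chordin-wnt3a arrays, against 25.8%. In the cell adhesion and matrix list of 53 the called genes were pcdh8.L (higher) and pcdh8l.S (lower). No gene was called in the endoderm list of 9 or the blood and endothelium list of 8. The shares of all genes are 2.62% higher and 2.66% lower, so the epidermal, housekeeping, adhesion, endoderm and blood counts tell little.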
